A study of Rattus norvegicus with 65 samples.

Results

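Acetaminophen (Ace), a pain-relieving and fever-lowering drug, was compared with its vehicle after 6 h in primary neonatal rat cardiomyocytes by RNA sequencing. The comparison held 13 of the 65 libraries of the series, chosen by the headings of the count table. Of these, 6 came from cultures given 2.5 mM Ace in 0.25% DMSO (Ace_6) and 7 came from cultures given 0.25% DMSO alone (DMSO2_6). The other libraries came from the same kind of culture after 24 h of Ace or 0.25% DMSO (Ace_24 and DMSO2_24, 7 libraries each), or after 5-fluorouracil (5FU, 10 mM in 1% DMSO), doxorubicin (Dox, 1.25 µM in 0.25% DMSO) or 1% DMSO (DMSO1) for 6 or 24 h. The cells were taken from hearts of newborn rats of several litters, mixed before plating, and kept overnight without serum before treatment. All libraries were therefore parallel cultures of 1 mixed preparation, and the p-values measure only the spread between such cultures.

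Most Ace taken up by the body is coupled to glucuronic acid or sulfate in the liver. A part is oxidised by cytochrome P450 enzymes to the quinone imine NAPQI, which binds glutathione and protein thiols. The transcription factor NRF2 is released from its inhibitor KEAP1 when such electrophiles modify KEAP1, and it then switches on genes that make glutathione and repair oxidised proteins. Ace also lowers prostaglandin formation by the cyclooxygenases. Cultures of newborn rat heart hold cardiomyocytes that are leaving the cell cycle beside fibroblasts, endothelial cells and other cells that still divide. In dividing cells, E2F transcription factors drive the genes of DNA replication, whereas the genes of mitosis are driven later by complexes that bind the CHR element and the CCAAT box of their promoters.

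The table held estimated counts for 14554 genes, and 12640 of them had at least 10 counts in all 13 libraries. Library totals ran from 17448486 to 22379517 counts in Ace_6 and from 18436756 to 21848389 in DMSO2_6. The first principal component held 37.5% of the variance of log2 CPM, a gene's count relative to the scaled total of its library, and placed the 6 Ace_6 libraries between 24.0 and 27.1 and the 7 DMSO2_6 libraries between -23.8 and -20.4. None of the 13 libraries stood apart from its group on this axis. The label of the cells was matched by their contents, since 15 cardiomyocyte markers together made up 40049 to 47161 CPM in Ace_6 and 37154 to 43282 CPM in DMSO2_6. Fibroblast, endothelial, smooth muscle, macrophage, epicardial, Schwann cell and blood markers were detected as well, and no marker measured stayed at or below 3 counts in all 13 libraries.

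Ace changed 4619 genes within 6 h, which was 31.7% of the genes tested. A gene was called at a false discovery rate (FDR) below 0.01 in edgeR's quasi-likelihood test. Of these, 2404 genes were higher (16.5% of the genes tested) and 2215 lower (15.2%). All changes below, written as rose by or fell by or in brackets after a gene, are on the log2 scale. The median size of a called change was 0.41 on the log2 scale, with quartiles of 0.29 and 0.62, and 136 genes rose and 248 fell by at least 1. All 6 Ace_6 libraries lay above all 7 DMSO2_6 libraries for 1803 genes (12.4%), and all lay below for 1757 (12.1%). Of the called genes, 3259 (70.6%) had groups that did not overlap. In the plot of change against abundance, the called genes fell on both sides of 0 at every level of expression.

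**Figure D1:**
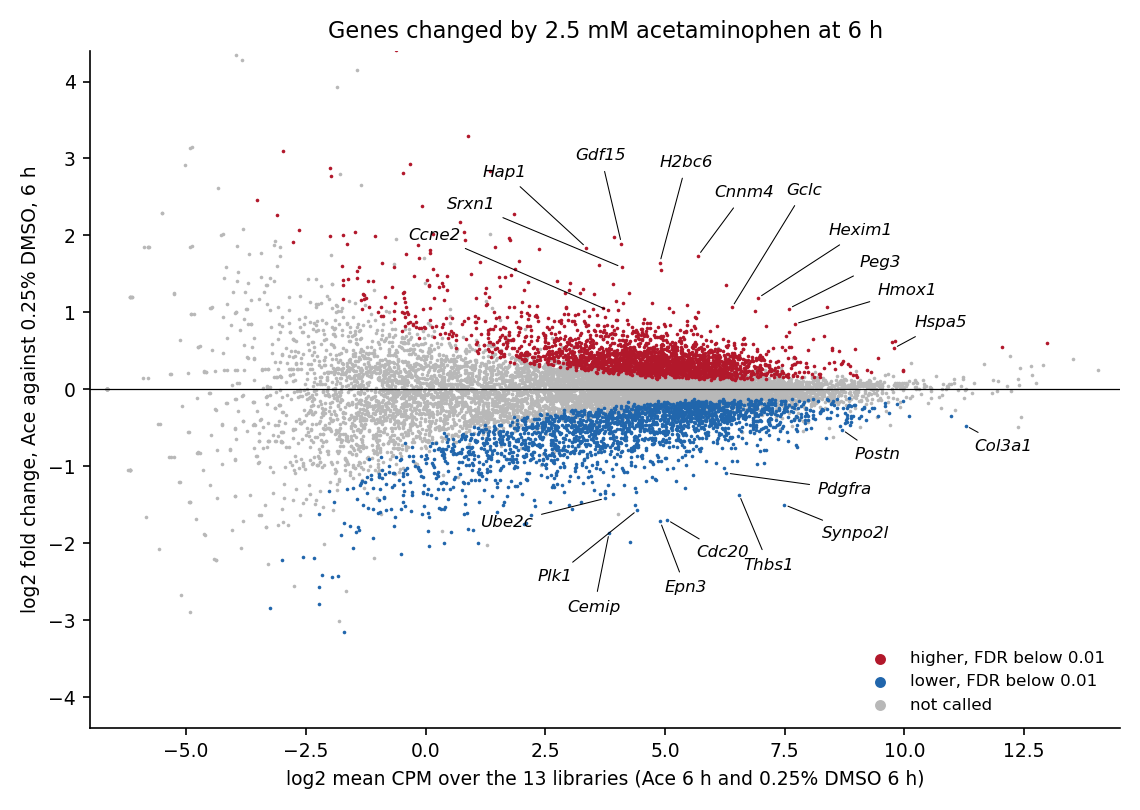
Each point is a gene, with the log2 of its mean CPM over the 13 libraries on the horizontal axis and the log2 fold change of Ace_6 against DMSO2_6 on the vertical axis. Red points are the 2404 higher genes, blue points the 2215 lower genes and grey points genes not called, and 3 genes lie outside the axes.

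The genes of mitosis fell at 6 h. Of 75 genes of G2 and mitosis in the table, 45 fell and 2 rose, where 15.2% of all genes tested fell. The median log2 fold change of the list was -0.54, against 0.0023 for all genes. Of the 45 genes that fell, 41 had no overlap between the groups, against 70.6% of all called genes. Cdc20, which activates the anaphase-promoting complex, ranged from 13.7 to 16 CPM (median 15.1) in Ace_6 and from 44.5 to 53.8 CPM (median 48.9) in DMSO2_6. Every Ace_6 library was far below every DMSO2_6 library, and the log2 fold change was -1.69 ± 0.12 SE, FDR = 1.3e-18. Plk1, a kinase that drives entry into and passage through mitosis, ranged from 9.76 to 11.6 CPM (median 10.3) in Ace_6 and from 29.7 to 34.2 CPM (median 30.7) in DMSO2_6. Its groups were equally well separated, with a log2 fold change of -1.57 ± 0.10 SE, FDR = 5.2e-21. Ube2c, the ubiquitin-conjugating enzyme of the anaphase-promoting complex, ranged from 5.84 to 7.93 CPM (median 7.13) in Ace_6 and from 16.2 to 21.4 CPM (median 19.3) in DMSO2_6, and Ccnb1, the cyclin that brings cells into mitosis, ranged from 10.3 to 13.7 CPM (median 11.6) in Ace_6 and from 24.6 to 31.5 CPM (median 28) in DMSO2_6. Neither gene had overlapping groups, and the log2 fold changes were -1.42 ± 0.11 SE for Ube2c and -1.29 ± 0.13 SE for Ccnb1.

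Several other genes of the mitotic machinery fell as well. The log2 fold change was -1.37 for Pimreg, -1.18 for Kif22, a kinesin that moves chromosome arms, -1.14 for the kinetochore protein Cenpf and -1.08 for the spindle checkpoint kinase Bub1b. Top2a, the topoisomerase that untangles sister chromosomes, and the mitotic kinase Cdk1 changed by -0.60 and -0.57. The proliferation antigen Mki67 was not called, with a log2 fold change of -0.22 (FDR = 0.14), and neither were the kinase Aurkb (-0.05) and the transcription factor Foxm1 (-0.14). The members that rose were Mybl2 (0.43), a subunit of the complex that activates mitotic genes, and Ube2s (0.52), which extends ubiquitin chains with Ube2c. In a bulk library, fewer dividing cells and less mitotic RNA per dividing cell cannot be told apart. Of 16 fibroblast markers 8 were called lower in Ace_6, and of 15 endothelial markers 8, where 15.2% of all genes fell. The fibroblast markers summed to 9733 to 13694 CPM in Ace_6 and 12462 to 17849 CPM in DMSO2_6, which overlap. The endothelial markers summed to 303 to 369 CPM and 406 to 509 CPM. At 24 h the median log2 fold changes were -1.03 for fibroblast markers, -0.86 for endothelial markers and 1.10 for the mitosis list. The part of these markers in the fall of the mitotic genes was not tested.

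Promoters are shown for the 4 mitotic genes with the largest falls among those with a promoter sequence at hand. Ube2c and Pimreg fell more than Ccnb1 and Kif22 but had no such sequence. The 4 genes were taken by the size of their fall, without regard to the letters marked. Each run is the RefSeq window of 250 bases before to 50 after the gene's start in the rat build GRCr8, read 5′ to 3′ on the gene's strand. Capitals mark the CHR letters TTTGAA or TTTAAA and the CCAAT box, or their reverse complements. The sequences of Cdc20 (chr5:137255750-137256049, minus strand), Plk1 (chr1:186147408-186147707, plus strand), Ccnb1 (chr2:33655176-33655475, minus strand) and Kif22 (chr1:191080829-191081128, minus strand) read as follows.
Cdc20: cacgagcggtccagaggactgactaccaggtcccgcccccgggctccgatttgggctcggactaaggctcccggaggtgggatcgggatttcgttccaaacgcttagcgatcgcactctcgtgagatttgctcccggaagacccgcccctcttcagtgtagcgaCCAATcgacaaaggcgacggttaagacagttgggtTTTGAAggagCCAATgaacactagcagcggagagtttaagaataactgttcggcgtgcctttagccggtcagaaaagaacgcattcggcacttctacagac
Plk1: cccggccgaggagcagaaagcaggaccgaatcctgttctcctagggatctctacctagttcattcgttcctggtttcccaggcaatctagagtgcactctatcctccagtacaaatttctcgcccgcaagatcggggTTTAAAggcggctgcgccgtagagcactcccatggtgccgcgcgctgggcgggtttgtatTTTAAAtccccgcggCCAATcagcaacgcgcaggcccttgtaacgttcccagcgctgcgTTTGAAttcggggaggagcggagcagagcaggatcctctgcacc
Ccnb1: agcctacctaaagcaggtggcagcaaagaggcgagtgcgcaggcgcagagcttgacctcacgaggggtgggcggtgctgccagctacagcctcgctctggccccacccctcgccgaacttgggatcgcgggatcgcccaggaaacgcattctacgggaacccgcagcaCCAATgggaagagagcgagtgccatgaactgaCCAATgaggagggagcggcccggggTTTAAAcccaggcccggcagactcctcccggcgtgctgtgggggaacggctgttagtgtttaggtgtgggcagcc
Kif22: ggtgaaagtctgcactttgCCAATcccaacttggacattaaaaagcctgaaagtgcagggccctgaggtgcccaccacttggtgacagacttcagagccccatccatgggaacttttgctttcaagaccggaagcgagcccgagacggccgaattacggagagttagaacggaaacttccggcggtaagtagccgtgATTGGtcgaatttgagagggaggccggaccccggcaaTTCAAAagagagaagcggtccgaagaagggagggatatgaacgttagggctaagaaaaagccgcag
The CHR letters began 51 bases before the start of Cdc20, 113 and 53 bases before and 6 bases after that of Plk1, 25 bases before that of Ccnb1 and 16 bases before that of Kif22. A CCAAT box lay 86 and 41 bases before the start of Cdc20, 38 bases before that of Plk1, 82 and 50 bases before that of Ccnb1, and 231 and 53 bases before that of Kif22.

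Both motifs were searched on both strands. The CHR letters were present in 32 of the 37 promoters found for mitotic genes that fell (86.5%), in 18.9% of the 11403 promoters found for genes tested and in 28.3% of all 33469 promoters of this length. They were also present in 19 of 26 promoters of the other mitotic genes (73.1%). The CCAAT box was present in 30 of the 37 promoters (81.1%), in 18 of 26 of the other mitotic genes (69.2%) and in 37.5% of all promoters. Both motifs together were present in 26 of the 37 (70.3%), in 14 of the 26 (53.8%) and in 11.3% of all promoters. Among the replication genes that rose, 2 of 19 promoters (10.5%) held the CHR letters and 13 of 19 (68.4%) a CCAAT box. These matches describe the windows and are not evidence of binding.

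The genes of DNA replication moved the other way. Of 58 replication genes and E2F targets in the table, 25 rose and 1 fell, where 16.5% of all genes tested rose, and the list's median log2 fold change was 0.21. Of the 25, 22 had groups that did not overlap, against 70.6% of all called genes. Ccne2, a cyclin of the start of S phase, ranged from 17.1 to 23.3 CPM (median 19.3) in Ace_6 and from 8.37 to 10.8 CPM (median 9.68) in DMSO2_6. Cdc6, which loads the replicative helicase onto origins, ranged from 13 to 17.2 CPM (median 13.9) in Ace_6 and from 6.35 to 8.35 CPM (median 7.47) in DMSO2_6. E2f1, itself a target of E2F factors, ranged from 27.5 to 36.1 CPM (median 31.2) in Ace_6 and from 14.4 to 19.7 CPM (median 16.8) in DMSO2_6. The Ace_6 libraries lay above all DMSO2_6 libraries for each of the 3 genes, with log2 fold changes of 1.02 ± 0.11 SE for Ccne2, 0.96 ± 0.12 SE for Cdc6 and 0.92 ± 0.11 SE for E2f1. Cdt1, the partner of Cdc6 in licensing, rose by 0.90, Dtl, which marks Cdt1 for destruction, by 0.83, and Pcna, the sliding clamp of DNA polymerase, by 0.59. When only the 13 compared libraries were fitted, 38 replication genes were called higher. The plot of CPM in each library shows mitotic, replication, stress and matrix genes side by side.

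**Figure D2:**
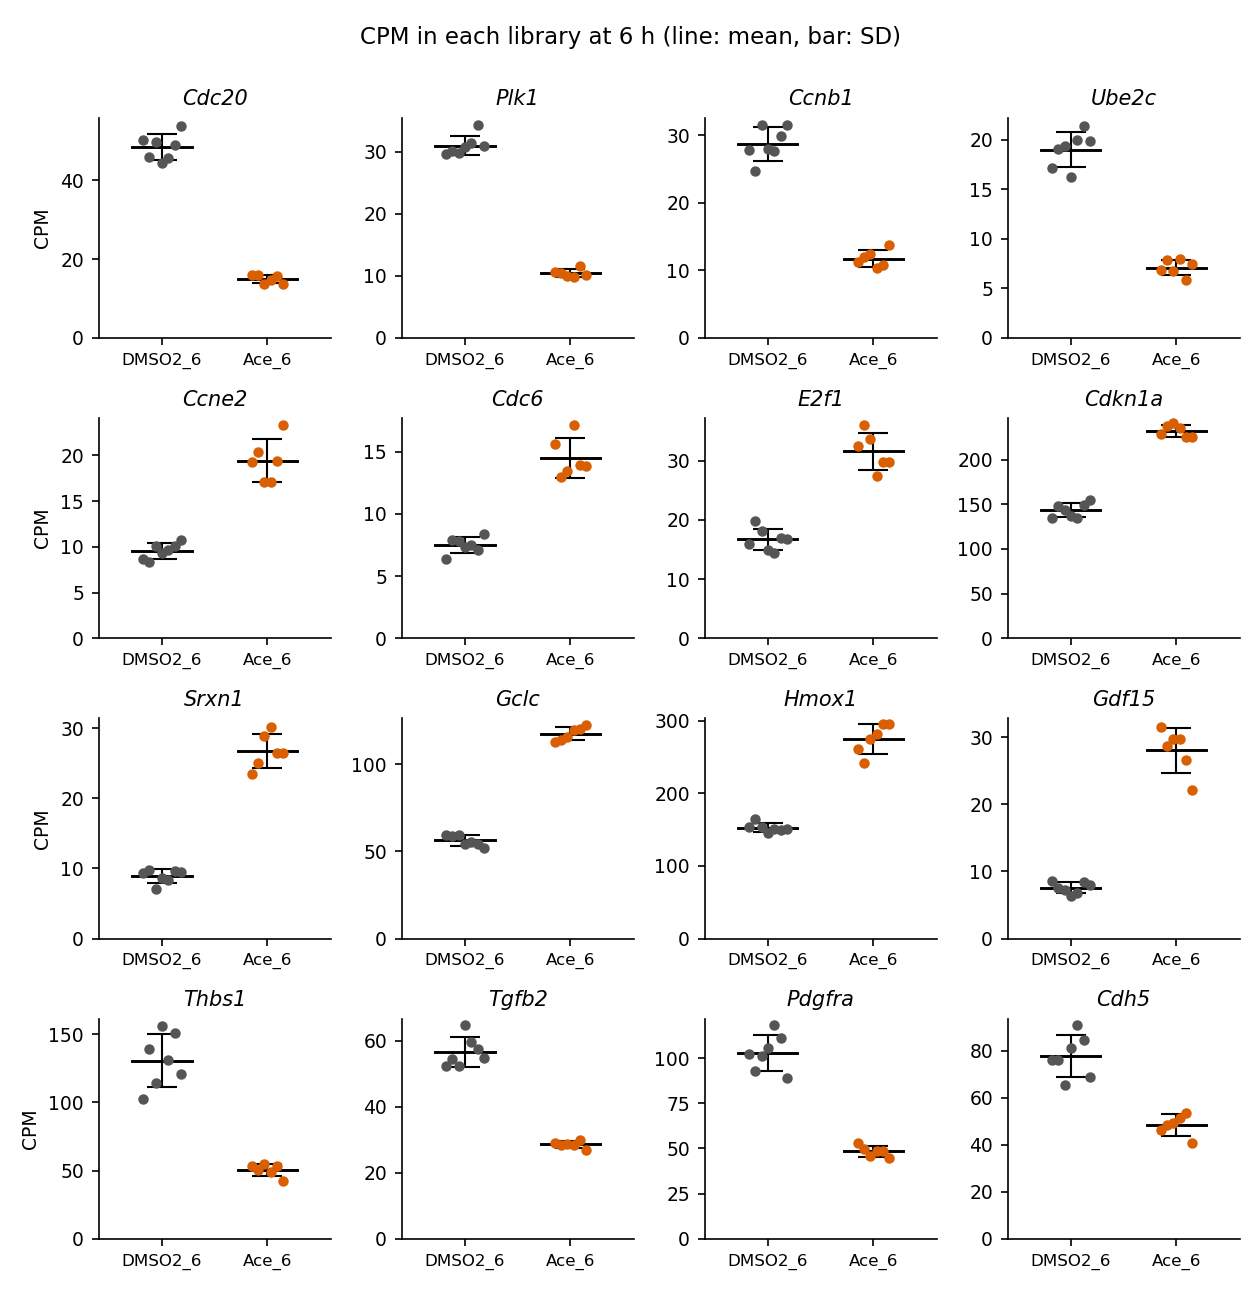
Each panel shows 1 gene with its CPM on the vertical axis, starting at 0, and each point is a library (7 of DMSO2_6 in grey, 6 of Ace_6 in orange). The long line is the mean and the bar the SD. In none of the 16 genes do the groups overlap: the 4 mitotic genes, Thbs1, Tgfb2, Pdgfra and Cdh5 are lower in Ace_6 and the other 8 genes are higher.

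By 24 h the mitotic genes had turned. The 24 h contrast used Ace_24 against DMSO2_24 and shared no library with the 6 h contrast. Of the 75 genes of G2 and mitosis, 70 were higher at 24 h, where 18.2% of all genes were higher and 19.1% lower, and the list's median log2 fold change was 1.10. Of the 45 genes that had fallen at 6 h, 41 were called higher at 24 h. The change of the Ace effect between times was tested as 1 contrast. This test called 5.58% of all genes more positive and 6.06% more negative at 24 h, and it called all 45 of these genes and 72 of the 75 genes of the list more positive. Cdc20 went from a log2 fold change of -1.69 at 6 h to -0.09 at 24 h, Plk1 from -1.57 to 0.28, Ccnb1 from -1.29 to 0.54, Ube2c from -1.42 to 0.74 and Top2a from -0.60 to 1.57. Of these 5 genes, Cdc20 was the one still not above 0 at 24 h.

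The replication genes kept their direction. Of the 58, 51 were higher at 24 h with a list median of 0.82, and 24 of the 25 genes that rose at 6 h were among them. The increase between times was called for 20 of these 25. E2f1 went from 0.92 to 1.76 and Dtl from 0.83 to 2.18, and both differences were called (FDR = 5.7e-05 for E2f1 and 7.6e-09 for Dtl). Ccne2 and Cdc6 were higher by 1.51 and 1.38 at 24 h, and their differences between times were not called. In the plot of both times, the mitotic genes fill the upper left and the replication genes the upper right.

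**Figure D3:**
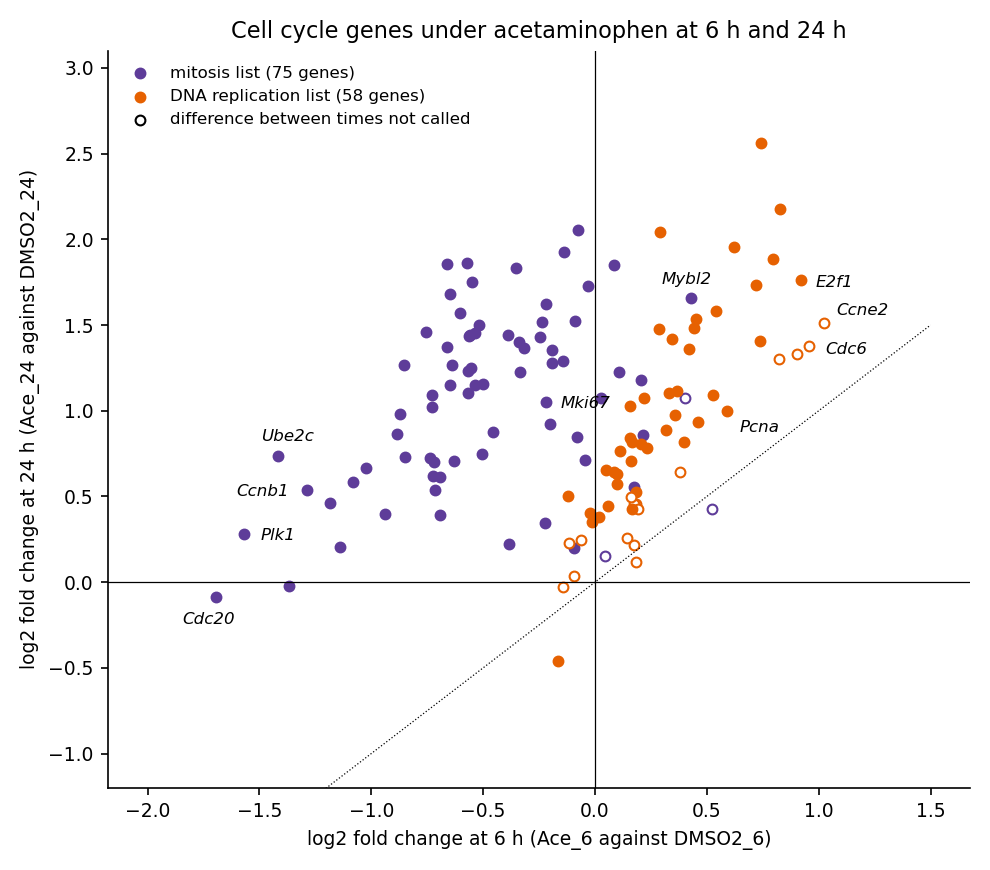
Each point is a gene of the mitosis list (75, purple) or the DNA replication list (58, orange), with the log2 fold change of Ace against 0.25% DMSO at 6 h on the horizontal axis and at 24 h on the vertical axis. Open circles are genes whose difference between times was not called, and the dotted line marks equal change. At 6 h 45 mitotic genes fell, and at 24 h 70 were higher.

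Over all genes, 2617 were called in the same direction at both times, which was 56.7% of the 6 h calls and 48.3% of the 24 h calls. The Ace effect differed between times for 881 of the 4619 genes called at 6 h.

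The genes that govern entry into S phase were divided. Of 20 G1 cyclins, kinases and inhibitors, 5 rose (3 with library size as the only scaling) and 5 fell, where 16.5% of all genes rose and 15.2% fell. Ccnd1, the D-type cyclin that couples growth factors to division, fell by 0.35, its kinase Cdk4 fell by 0.33, and the repressive E2F factor E2f5 rose by 0.88. Cdkn1a, the p53-induced inhibitor of cyclin-dependent kinases, ranged from 225 to 241 CPM (median 232) in Ace_6 and from 134 to 155 CPM (median 143) in DMSO2_6. Its groups did not overlap, but the log2 fold change of 0.70 ± 0.22 SE, FDR = 0.0088 was near the threshold, and it was not called when any 1 of the 13 libraries was left out (highest FDR = 0.016) or with library size as the only scaling (FDR = 0.011).

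Genes of the p53 response and of DNA repair were more often higher than lower. Of 36 p53 targets, 15 rose and 2 fell, where 16.5% of all genes rose and 15.2% fell, and the list median was 0.26. Gdf15, a secreted stress cytokine, ranged from 22.1 to 31.6 CPM (median 29.2) in Ace_6 and from 6.31 to 8.55 CPM (median 7.57) in DMSO2_6, a log2 fold change of 1.89 ± 0.30 SE, FDR = 4.6e-07. All Ace_6 libraries were far above the vehicle libraries. Ddias, an anti-apoptotic protein named for its induction by DNA damage, rose by 0.82, the BH3 protein Pmaip1 by 0.73, and Gadd45a, a sensor of growth arrest, by 0.58. Mdm2, the ubiquitin ligase that holds p53 down and one of its best-known targets, was not called at 0.33 (FDR = 0.068). Of 60 repair genes, set against the same shares of all genes, 22 rose and 3 fell. Those that rose included Lig4 (1.05), which seals double-strand breaks by end joining, the exonuclease Exo1 (0.81), Brca1 (0.57), and Xpc (0.57), the damage sensor of nucleotide excision repair. At 24 h, Ddias was higher by 2.82 and Gdf15 by 3.15. For Ddias that difference was called (FDR = 3.1e-07).

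Genes that NRF2 controls rose more often than they fell, among them those of glutathione and thioredoxin. Of 35 NRF2 targets, 12 rose and 1 fell, where 16.5% of all genes rose and 15.2% fell, and the list median was 0.13. The groups did not overlap for 11 of the 12, against 70.6% of all called genes. Srxn1, the sulfiredoxin that repairs oxidised peroxiredoxins, ranged from 23.5 to 30.2 CPM (median 26.4) in Ace_6 and from 7.06 to 9.75 CPM (median 9.37) in DMSO2_6. Gclc, the catalytic subunit of the enzyme that limits glutathione synthesis, ranged from 113 to 123 CPM (median 118) in Ace_6 and from 51.9 to 59.2 CPM (median 55.5) in DMSO2_6. Hmox1, the heme oxygenase, ranged from 242 to 295 CPM (median 279) in Ace_6 and from 146 to 164 CPM (median 151) in DMSO2_6. The groups of all 3 genes were separate, with the Ace_6 libraries higher, and the log2 fold changes were 1.59 ± 0.15 SE for Srxn1, 1.06 ± 0.064 SE for Gclc and 0.85 ± 0.13 SE for Hmox1. Gclm, the modifier subunit of the same enzyme as Gclc, rose by 0.42, the quinone reductase Nqo1 by 0.55 and the thioredoxin reductase Txnrd1 by 0.51. Not every classical target was called. Slc7a11, the cystine importer, changed by 0.04, and the RNA of NRF2 itself (Nfe2l2) by -0.04, and neither passed the test.

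Most of these genes were still higher at 24 h. Of the 12 that rose at 6 h, 11 were also higher at 24 h and 4 differed between times. At 24 h 20 of the 35 were higher, where 18.2% of all genes were higher and 19.1% lower. The test of the difference between times called 5.58% of all genes more positive and 6.06% more negative at 24 h. Srxn1 was higher by 1.55 at 24 h and Nqo1 by 1.26. Aldh3a1, an aldehyde dehydrogenase, was among the 12 largest increases of the table at 6 h. It ranged from 45.1 to 49 CPM (median 47.3) in Ace_6 and from 12.9 to 19.5 CPM (median 15.3) in DMSO2_6, a log2 fold change of 1.55 ± 0.11 SE, FDR = 6.2e-18, and no library of either group reached the other. At 24 h its change was 0.41 and was not called (FDR = 0.054), and it was less than at 6 h (FDR of the difference = 5.4e-05). In the list of iron handling and metallothioneins, 1 of 26 genes fell and 7 rose at 6 h, where 15.2% of all genes fell and 16.5% rose. Among those that rose were Hmox1, the ferritin light chain Ftl1 (0.51) and the metallothionein Mt1 (0.69).

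Some fast-responding transcription factors rose as well. Of 34 immediate early genes, 10 rose and 1 fell, where 16.5% of all genes rose and 15.2% fell, and the list median was 0.20. Atf3 rose by 1.25, Fos by 1.08, Ier2 by 0.72 and Egr1 by 0.60, all of them regulators that are induced within minutes to hours of a stimulus. Without Ace_6 library 3, 6 of the 34 were called higher. Atf3 is also a target of ATF4, the factor of the amino acid response. Of 55 genes of the ATF4 and endoplasmic reticulum (ER) stress response, 10 rose and 6 fell, with a list median of 0.04, where 16.5% of all genes rose and 15.2% fell. With library size as the only scaling 6 rose, and with the 13 compared libraries alone 12 fell.

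Members of that list went opposite ways. Hspa5 (BiP), the main ER chaperone, ranged from 1010 to 1101 CPM (median 1047) in Ace_6 and from 706 to 752 CPM (median 727) in DMSO2_6. Every Ace_6 library was above every vehicle library, and the log2 fold change was 0.53 ± 0.071 SE, FDR = 6.4e-09. Calr, a chaperone that binds calcium, changed by 0.23 ± 0.067 SE and Manf, a secreted protein of the ER, by 0.39 ± 0.058 SE, both called. The glycine transporter Slc6a9 (-0.76) and the stress protein Nupr1 (-0.65) fell, and the RNA of Atf4 was not called (-0.12, FDR = 0.28). At 24 h the change was -0.05 for Hspa5 and -0.17 for Calr, and both differed from 6 h (FDR = 7.7e-06 and 8.8e-04). The call of Calr at 6 h was lost with library size as the only scaling.

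Of 29 heat shock factor targets and chaperonins, 3 rose and the others were not called, where 16.5% of all genes rose and 15.2% fell. Those that rose included the inducible Hsp70 gene Hspa1b (0.69), whose reads are hard to separate from its near-identical copy, and its co-chaperone Dnajb1 (0.45). Histone genes with polyadenylated transcripts, set against the same shares of all genes, rose in 5 of 12 cases and fell in 1. H2bc6, a histone H2B gene, is not in this list and was named for the size of its rise. It ranged from 40.2 to 51.3 CPM (median 46.6) in Ace_6 and from 12.5 to 17.7 CPM (median 14.9) in DMSO2_6, a log2 fold change of 1.64 ± 0.10 SE, FDR = 1.5e-20. The groups were far apart. H1f2, a linker histone, rose by 1.35, H2ax, the variant phosphorylated at DNA breaks, by 1.01, and H3f3b, a replication-independent histone H3, by 0.70. The libraries were made from polyadenylated RNA, which most histone transcripts lack, and histone genes resemble each other in sequence, so these values hold only for the reads assigned to each gene.

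Of 22 genes of Ace metabolism and transport in the table, 4 rose and 2 fell, so that 27.3% were called against 31.7% of all genes, and the list's median was 0.06. Cyp1b1, a cytochrome P450 controlled by the aryl hydrocarbon receptor, ranged from 92.4 to 108 CPM (median 97) in Ace_6 and from 154 to 186 CPM (median 173) in DMSO2_6. All Ace_6 libraries were lower, with a log2 fold change of -0.79 ± 0.087 SE, FDR = 2.7e-11, and at 24 h the change was -0.20. Cyp1a1, another target of that receptor, changed by -0.51 ± 0.15 SE at 6 h and 1.17 at 24 h, a difference that was called (FDR = 2.1e-06). Its 6 h call was lost in 3 of the fits that left out 1 library (highest FDR = 0.013). Abcb1a, a drug efflux pump, rose by 0.59.

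Genes of the prostaglandin pathway were called in no larger share than all genes. Of 30 genes of prostaglandin synthesis, breakdown and reception, 7 fell and 1 rose, so that 26.7% were called against 31.7% of all genes, and the median was -0.10. All 7 had groups that did not overlap, as had 70.6% of all called genes. Ptgs1, the constitutive cyclooxygenase, ranged from 5.3 to 6.78 CPM (median 6.33) in Ace_6 and from 6.95 to 8.5 CPM (median 8.02) in DMSO2_6. All Ace_6 libraries lay below the vehicle libraries by a narrow margin, but the gene was not called at -0.35 (FDR = 0.011). Ptgs2, the inducible cyclooxygenase, was not called either (0.50, FDR = 0.058). Tbxa2r, the thromboxane receptor, ranged from 1.43 to 2.38 CPM (median 1.86) in Ace_6 and from 5.26 to 8.2 CPM (median 6.19) in DMSO2_6, a log2 fold change of -1.73 ± 0.15 SE, FDR = 2.2e-14. Its vehicle libraries were all at least 5 CPM and its Ace_6 libraries all below 3 CPM. The receptor of prostaglandin F, Ptgfr, fell by 0.53.

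Many genes of the extracellular matrix and of its remodelling fell, and the others of these lists were not called. Of 25 collagens 8 fell (median -0.28), of 46 hyaluronan, matricellular and proteoglycan genes 18 fell (median -0.39) and of 34 matrix proteases and their inhibitors 14 fell (median -0.21), where 15.2% of all genes fell. The groups did not overlap for 3 of these 8, 15 of these 18 and 11 of these 14 genes, against 70.6% of all called genes. Cemip, which breaks down hyaluronan, ranged from 5.35 to 7.21 CPM (median 5.71) in Ace_6 and from 16.8 to 23.8 CPM (median 21.6) in DMSO2_6, a log2 fold change of -1.86 ± 0.19 SE, FDR = 1.8e-12. Thbs1, the matricellular protein thrombospondin 1, ranged from 42.7 to 55 CPM (median 51.8) in Ace_6 and from 103 to 156 CPM (median 131) in DMSO2_6, a log2 fold change of -1.37 ± 0.19 SE, FDR = 1.4e-08. Both genes were lower in every Ace_6 library than in any vehicle library. The log2 fold changes of the matricellular proteins periostin (Postn) and tenascin C (Tnc) were -0.52 and -0.70. Those of the aggrecanases Adamts4 and Adamts5 were -1.24 and -1.14, and that of the membrane collagenase Mmp14 was -0.42. All 5 genes were called.

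Col3a1, an abundant fibrillar collagen, ranged from 1855 to 2179 CPM (median 2065) in Ace_6 and from 2580 to 3137 CPM (median 2746) in DMSO2_6. The groups did not overlap, and the log2 fold change was -0.47 ± 0.11 SE, FDR = 2.2e-04. Col1a1 was not called at -0.36, and Col6a1 changed by -0.34 ± 0.10 SE with overlapping groups and was not called in 3 of the fits that left out 1 library. In 8 of these 13 fits 4 or 5 collagens were called. At 24 h, 16 of the 25 collagens and 31 of the 46 other matrix genes were lower, where 19.1% of all genes were lower. Col3a1 changed by -1.33 and Postn by -2.05 at that time, and the effect differed between times for both (FDR = 9.6e-06 and 1.5e-09).

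Genes of TGF-beta, BMP and growth factor signalling fell more often than they rose. Of 40 genes of TGF-beta and BMP signalling, 13 fell and 3 rose (median -0.22), where 15.2% of all genes fell and 16.5% rose. Tgfb2, a TGF-beta ligand, ranged from 26.9 to 29.9 CPM (median 28.6) in Ace_6 and from 52.3 to 64.8 CPM (median 54.9) in DMSO2_6, a log2 fold change of -0.99 ± 0.20 SE, FDR = 3.4e-05. Its Ace_6 libraries were all below the vehicle libraries. Tgfb3 (-1.02) and the BMP antagonist Grem1 (-2.04) also fell, whereas Ski, a repressor of SMAD proteins, rose by 0.62. Of 47 growth factors and receptors, beside the same shares, 16 fell and 5 rose (median -0.30). The groups did not overlap for 7 of the 13 TGF-beta and BMP genes that fell. They did not overlap for 11 of the 16 growth factors and receptors, against 70.6% of all called genes. Pdgfra, the PDGF receptor of fibroblasts, ranged from 44.5 to 53 CPM (median 48.5) in Ace_6 and from 88.7 to 118 CPM (median 102) in DMSO2_6, a log2 fold change of -1.09 ± 0.10 SE, FDR = 1.6e-14, again with no overlap. The lymphatic growth factors Vegfc (-1.0) and Vegfd (-1.75) fell, as did Fgf1 (-0.93) and Igf1 (-0.60). Fgfr3, an FGF receptor, rose by 1.06.

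Markers of fibroblasts, endothelium and epicardium fell in part, where 15.2% of all genes fell. The fibroblast markers include Col3a1, Postn and Pdgfra, which were described above with the matrix and growth factor genes, so these lists share genes. Of 16 fibroblast markers 8 fell, of 15 endothelial markers 8 fell and of 10 epicardial and mesothelial markers 6 fell, and the others were not called. Their median log2 fold changes were -0.37, -0.50 and -0.47. The summed level of the fibroblast markers overlapped between the groups, at 9733 to 13694 CPM in Ace_6 and 12462 to 17849 CPM in DMSO2_6. The sums of the endothelial markers (303 to 369 CPM and 406 to 509 CPM) and of the epicardial markers (43.1 to 50.9 CPM and 56.9 to 63.3 CPM) did not overlap. Of 15 cardiomyocyte markers 1 fell and the median was 0.01, and of 15 macrophage markers 2 fell, of 13 smooth muscle markers 1 fell and of 8 Schwann cell markers 1 fell. The part of these markers in the fall of matrix and signalling genes was not tested.

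Endothelial genes fell by unequal amounts. Cldn5, the tight junction protein of endothelium, fell by 1.19, and the angiopoietin receptor Tek fell by 0.86. Cdh5 (VE-cadherin), which joins endothelial cells, ranged from 40.7 to 53.7 CPM (median 49) in Ace_6 and from 65.4 to 91.1 CPM (median 76.2) in DMSO2_6, a log2 fold change of -0.68 ± 0.12 SE, FDR = 3.7e-06. The 2 groups were separate. With the 13 compared libraries alone, 13 of the 15 endothelial markers were called lower. In the nitric oxide list 8 of 22 genes fell and 5 rose, where 15.2% of all genes fell and 16.5% rose. Nos3, the endothelial nitric oxide synthase, fell by 0.54, Cav1, which binds and restrains it, fell by 0.93, and Gch1, which makes the cofactor of this enzyme, rose by 0.95. At 24 h, 13 fibroblast markers and 12 endothelial markers were lower, with median changes of -1.03 and -0.86, where 19.1% of all genes were lower.

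**Figure D4:**
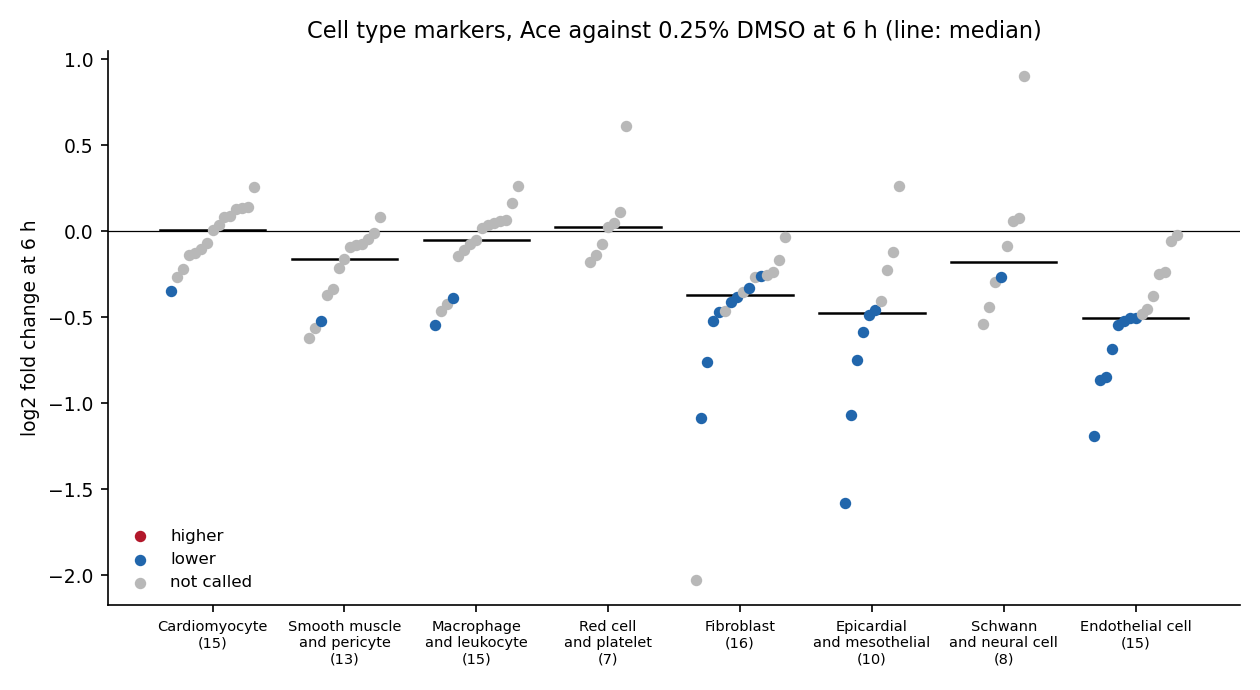
Each point is a marker gene with its log2 fold change (Ace_6 against DMSO2_6) on the vertical axis, grouped by the cell type it marks, with the number measured in brackets. Blue points are genes called lower and grey points genes not called, and the legend's red for higher genes is not used. The line is the median, which is -0.37 for fibroblast, -0.50 for endothelial and 0.01 for cardiomyocyte markers.

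Of 43 chemokines, cytokines and NF-kB genes, 16 fell and the other 27 were not called, where 15.2% of all genes fell, and the median was -0.26. Those that fell included the adhesion molecule Vcam1 (-0.98), the neutrophil chemokine Cxcl6 (-1.6) and the NF-kB subunit precursor Nfkb1 (-0.44). At 24 h, 15 genes of the list were lower and 8 higher, where 19.1% of all genes were lower and 18.2% higher. Of 27 interferon genes 4 rose (7 with the 13 compared libraries alone) and 7 fell at 6 h, where 16.5% of all genes rose and 15.2% fell.

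Few genes of the contractile apparatus were called. Of 29 contractile protein genes 2 fell and the others were not called, with a median of -0.05, where 31.7% of all genes were called. With the 13 compared libraries alone 8 fell. Myh6, the alpha myosin heavy chain, was not called at 0.26 (FDR = 0.042), and neither was Tnnt2, cardiac troponin T, at 0.08. Synpo2l, an actin-binding protein of the Z-disc, is not in this list and was named for the size of its fall. It ranged from 73.8 to 103 CPM (median 91.9) in Ace_6 and from 214 to 282 CPM (median 254) in DMSO2_6, a log2 fold change of -1.5 ± 0.19 SE, FDR = 2.1e-09. All Ace_6 libraries lay far below the vehicle libraries.

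Some genes of excitation and cardiac transcription fell. Of 36 genes of ion channels, connexins and calcium handling, 13 fell and the others were not called, where 15.2% of all genes fell, and the median was -0.12. The groups did not overlap for 10 of the 13, near the 70.6% of all called genes. Pln (phospholamban), the inhibitor of the calcium pump of the sarcoplasmic reticulum, ranged from 1699 to 1898 CPM (median 1739) in Ace_6 and from 2134 to 2344 CPM (median 2247) in DMSO2_6. The groups were separate, and the log2 fold change was -0.35 ± 0.075 SE, FDR = 1.3e-04. Gja1, the gap junction protein connexin 43, fell by 0.35, and Kcnj11, the pore of the ATP-sensitive potassium channel, fell by 0.66. Of 20 core cardiac transcription factors, 6 fell and the others were not called. Those that fell included Irx4 (-0.47), a factor of the ventricle, and Mef2c (-0.44). Without Ace_6 library 6 or without DMSO2_6 library 6, 3 genes of the list were called lower.

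Genes of oxidative phosphorylation and ribosomal proteins were not called. Of 69 nuclear-encoded subunits of oxidative phosphorylation, edgeR and DESeq2 called 0 at FDR below 0.01, and 1 had an unadjusted p below 0.05. The same counts were 0, 0 and 1 for 54 cytosolic ribosomal proteins. Their medians were 0.02 and 0.06. Of 33 glycolytic genes 4 fell, where 15.2% of all genes fell and 16.5% rose. With the 13 compared libraries alone 10 glycolytic genes fell and 3 rose. Of 38 genes of fatty acid uptake and oxidation, set against the same shares, 5 fell (3 in 7 of the fits that left out 1 library). Angptl4, an inhibitor of lipoprotein lipase and a PPAR target, fell by 0.88, and its change was 0.06 at 24 h (FDR of the difference = 1.8e-04). The lipid droplet proteins Plin2 (-0.59) and Plin4 (-1.46) fell, and Ppargc1a, a coactivator of mitochondrial genes, fell by 0.51. Of 34 cholesterol genes, beside the same shares of all genes, 7 rose and 1 fell. Those that rose included Npc1 (0.53), which moves cholesterol out of lysosomes. In the list of fatty acid synthesis, beside the same shares, 7 of 30 rose and 4 fell, with Acly, which makes cytosolic acetyl-CoA, at 0.34.

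In the clock list, 6 of 22 genes rose and 3 fell (5 with the 13 compared libraries alone), where 16.5% of all genes rose and 15.2% fell. Hlf, a transcription factor of the clock output, ranged from 1.51 to 2.02 CPM (median 1.71) in Ace_6 and from 0.208 to 0.832 CPM (median 0.461) in DMSO2_6, and its groups did not overlap despite the low level. The clock repressor Cry1 rose by 0.48 and Clock by 0.34, while Dbp (-0.44) and Nr1d1 (-0.39), which are driven by Clock, fell. At 24 h Clock changed by -0.05 and Nr1d1 by 0.34, and both effects differed from 6 h (FDR = 0.002 and 7.2e-05). Of 30 FoxO and atrophy genes, beside the same shares of all genes, 8 rose and 4 fell. With library size as the only scaling 5 rose, and 2 fell in 5 of the fits that left out 1 library. Fkbp5, a co-chaperone of steroid receptors, ranged from 58.8 to 64.2 CPM (median 62.1) in Ace_6 and from 26.4 to 31.2 CPM (median 29.3) in DMSO2_6, a log2 fold change of 1.1 ± 0.074 SE, FDR = 4.3e-19, with all Ace_6 libraries higher.

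The lists are summarised in the plot of called shares. Of the lists drawn, which leave out the cell type markers and some smaller lists, the mitosis list has the largest share called lower, and the replication, p53 and histone lists have the largest shares called higher. The epicardial markers, which are not drawn, had as large a share called lower as the mitosis list.

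**Figure D5:**
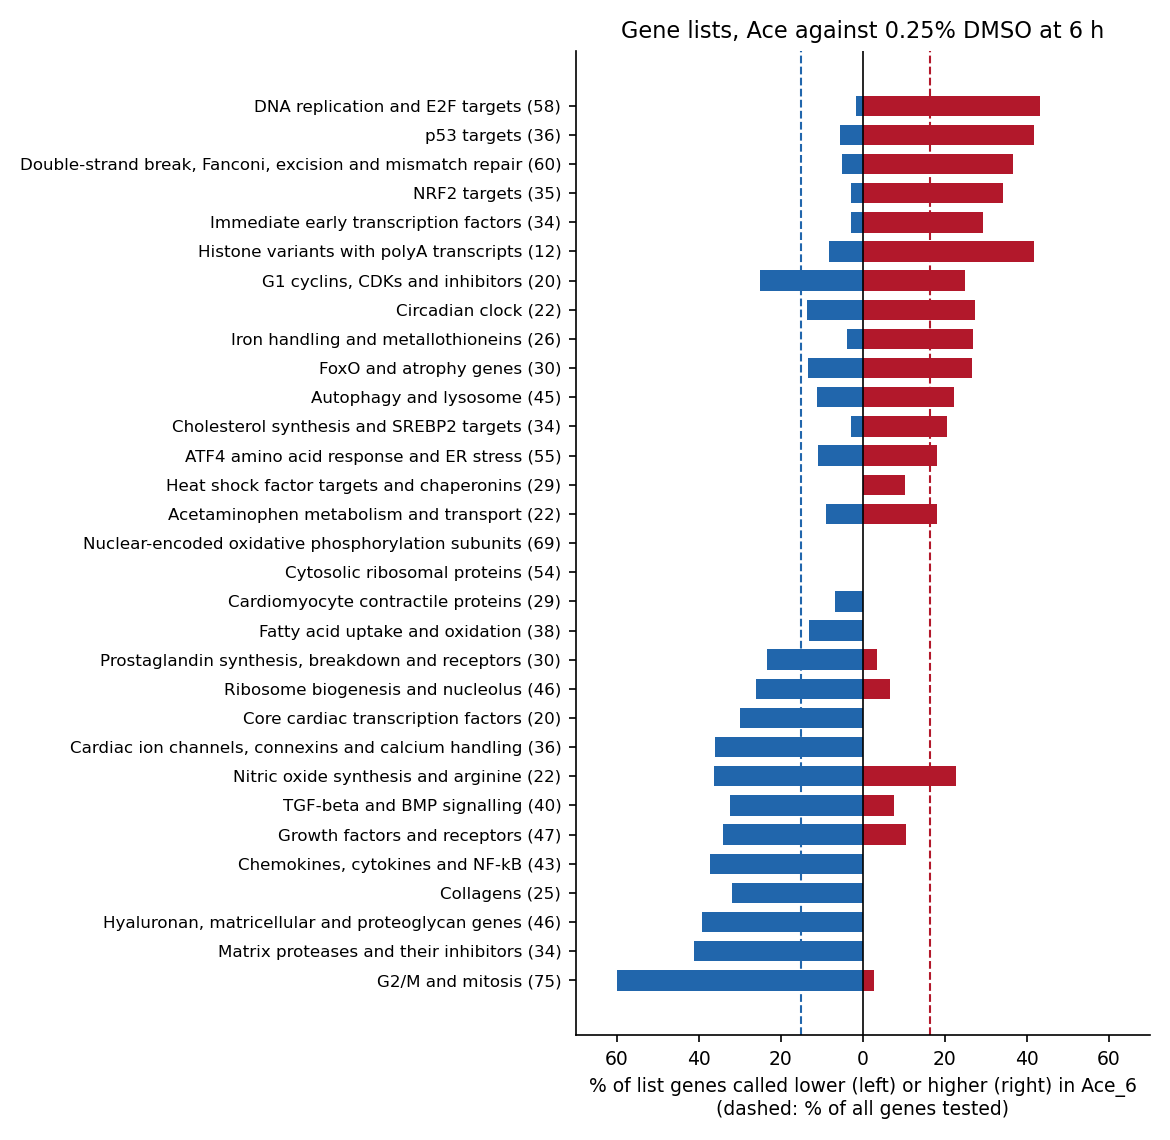
Each row is a gene list with the number of its genes in the table in brackets. Bars show the percentage of the list called lower (blue, to the left) and higher (red, to the right) in Ace_6 against DMSO2_6, and the dashed lines mark the 15.2% and 16.5% of all genes tested. The bar of the mitosis list stands for 45 of 75 genes and that of the replication list for 25 of 58, and of the lists drawn oxidative phosphorylation and ribosomal proteins have no bar.

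Beyond the lists, several genes with the largest or most certain increases have little in common by known function. Cnnm4, a transporter of magnesium, ranged from 75 to 86.1 CPM (median 84.4) in Ace_6 and from 21.4 to 28.3 CPM (median 24.9) in DMSO2_6, a log2 fold change of 1.74 ± 0.068 SE, FDR = 1.9e-30. Hexim1, which holds the elongation factor P-TEFb inactive, ranged from 167 to 187 CPM (median 174) in Ace_6 and from 73.8 to 82.3 CPM (median 77.3) in DMSO2_6, a log2 fold change of 1.19 ± 0.05 SE, FDR = 1.1e-28. Both showed wide gaps between the groups. Hap1, a partner of huntingtin in vesicle transport, ranged from 15.7 to 17.4 CPM (median 17.2) in Ace_6 and from 4.33 to 5.25 CPM (median 4.66) in DMSO2_6, a log2 fold change of 1.84 ± 0.093 SE, FDR = 7.8e-25. Lzts3 rose by 1.62, Tmem158 by 1.4, the cadherin gene Cdh24 by 1.38 and the inositol transporter Slc2a13 by 1.37. Ttyh2 and Wdr47 were among the smallest p-values, with increases of 1.12 and 0.82. Sbk1 had overlapping groups and a log2 fold change of 1.98 ± 0.57 SE, and it was not called without Ace_6 library 1 (FDR = 0.011) or by DESeq2. Its reads may be shared with a copy of the gene that is listed apart.

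By absolute output, in CPM and without correction for gene length, the largest increases included those of Hspa5, Sptan1 (0.40), Pabpc1 (0.25), Calr, H3f3b, Peg3 and Ftl1. Sptan1 is a spectrin of the membrane skeleton. Pabpc1, which binds polyadenylated tails, had overlapping groups and lost its call with library size as the only scaling. Peg3, an imprinted zinc finger gene, ranged from 249 to 280 CPM (median 272) in Ace_6 and from 115 to 146 CPM (median 123) in DMSO2_6, and all Ace_6 libraries were higher. Its log2 fold change of 1.05 ± 0.086 SE at 6 h was followed by -0.51 at 24 h, a called difference (FDR = 1.6e-16). The largest decreases by output were those of Col3a1, Pln, Actb (-0.35), Cavin1 (-0.31), Synpo2l, Col6a1, Sorbs2 (-0.40) and Postn. Actb encodes cytoplasmic actin, and Cavin1 a coat protein of caveolae. Sorbs2 had overlapping groups and was not called in 9 of the 13 fits that left out 1 library.

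The remaining large decreases included genes of the cell surface and of membrane traffic. Epn3, an adaptor of endocytosis, ranged from 12.2 to 15.4 CPM (median 13) in Ace_6 and from 40.8 to 46.6 CPM (median 43.9) in DMSO2_6, a log2 fold change of -1.71 ± 0.10 SE, FDR = 6.4e-22, and the groups were far apart. Itgb6, an integrin chain that can activate latent TGF-beta, fell by 1.55. The orphan receptor Mrgprf (-1.51), the glycolipid galactosyltransferase A3galt2 (-1.5) and the transglutaminase Tgm1 (-1.47) fell as well. Zfp467, Rilp and Cavin2 were among the smallest p-values, with changes of -1.34, -1.13 and -0.96. Rilp guides late endosomes along microtubules, and Cavin2 is a second coat protein of caveolae.

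The effect of Ace was then set against that of 5FU at 6 h, a drug that blocks thymidylate synthesis and was tested against its own 1% DMSO control (6 libraries each). The difference of the 2 effects was called for 13.8% of all genes as more positive and 17.1% as more negative in 5FU. The mitotic genes fell under both drugs. Under 5FU 55 of the 75 fell and 2 rose, where 24.5% of all genes fell and 23.4% rose, and of the 45 that fell under Ace 9 differed between the drugs. Cdc20 changed by -1.48 ± 0.12 SE under 5FU and -1.69 ± 0.12 SE under Ace, and Plk1 by -1.71 and -1.57. Many of the genes with the largest Ace increases differed between the drugs. Of the 24 increased genes named by size, output or p-value, 17 differed between the drugs, against 4 of the 22 decreased genes. These genes were chosen by their Ace values, which also enter the difference. The counts therefore do not compare Ace increases and decreases at large. Hap1 changed by -0.07 under 5FU, Aldh3a1 by -0.44 and Gclc by -0.19, and all 3 differences were called (FDR = 2.7e-17, 1.6e-15 and 2.0e-17). Gclc does not stand for the NRF2 list, in which 17 of 35 genes were higher and 5 lower under 5FU. Of the 12 NRF2 targets that rose under Ace, 4 differed between the drugs. Srxn1 rose by 1.95 under 5FU, and its difference was not called (FDR = 0.17). Energy genes also separated the drugs. Under 5FU 67 of the 69 oxidative phosphorylation genes were higher, and 48 of them differed from the Ace effect.

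Dox, a DNA-binding anthracycline, shared the DMSO2_6 controls with Ace, so the 7 Dox_6 libraries were compared with the 6 Ace_6 libraries directly. Of all genes, 30.6% were higher and 31.4% lower in Dox_6 than in Ace_6. In the mitosis list 35 of 75 genes were higher and 9 lower in Dox_6 than in Ace_6. Cdc20 changed by -0.88 under Dox and -1.69 under Ace, and Hap1 by 2.73 and 1.84. In the replication list 17 genes were higher and 21 lower in Dox_6, and in the NRF2 list 10 were higher and 16 lower.

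The 2 vehicle groups at 6 h differed in the dose of DMSO. The contrast of 1% against 0.25% DMSO shares the DMSO2_6 libraries with the Ace contrast. A deviation of these libraries moves both contrasts the same way, so the values of both are only given side by side. Between the vehicles 9.87% of all genes were higher and 6.6% lower in 1% DMSO. The mitosis list had a median log2 fold change of 0.28 in 1% DMSO, with 22 of 75 genes higher, and -0.54 under Ace. The replication list had a median of 0.23 in 1% DMSO, with 16 of 58 genes higher and 1 lower, and 0.21 under Ace. Some lists that were lower under Ace had medians of nearly the same size in 1% DMSO, and others did not. The median was -0.28 in both contrasts for the collagens (9 of 25 lower in 1% DMSO), -0.40 in 1% DMSO and -0.37 under Ace for the fibroblast markers (9 of 16 lower), and -0.50 in both for the endothelial markers (10 of 15 lower). For the matrix proteases it was -0.23 and -0.21 (11 of 34 lower in 1% DMSO), for ion channels and calcium handling -0.18 and -0.12 (9 of 36 lower and 4 higher), and for prostaglandin genes -0.10 in both (7 of 30 lower). Other lists had smaller falls in 1% DMSO than under Ace. Their medians were -0.09 and -0.39 for hyaluronan, matricellular and proteoglycan genes and -0.10 and -0.47 for epicardial markers. They were -0.15 and -0.30 for growth factors and -0.15 and -0.26 for chemokines, cytokines and NF-kB genes. The targets of YAP and serum response factor had medians of 0.36 and -0.16. The TGF-beta and BMP list had medians of 0.17 in 1% DMSO, with 11 of 40 genes higher and 3 lower, and -0.22 under Ace. Tgfb2 and Tgfb3 changed by 1.72 and 1.0 in 1% DMSO and by -0.99 and -1.02 under Ace.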

How the data were processed

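Per the labels and the study's methods, polyadenylated RNA was sequenced in 65 libraries of 10 groups. The authors quantified transcripts with kallisto 0.46.0 against a rat Ensembl annotation, summarised them to genes with tximport, removed genes of low count and tested with DESeq2. The deposited table holds estimated counts, already whole numbers, without normalization; its headings repeat group names, so libraries were numbered in column order for naming only. Symbols came from RefSeq (GRCr8) for 14009 of 14554 gene identifiers.

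Counts were scaled by TMM and fitted with edgeR 4.0.16 (quasi-likelihood, R 4.3.3) in 1 model of all 65 libraries with the 10 groups as terms. Genes were called at a Benjamini-Hochberg FDR below 0.01 over all genes. The SE is the log2 fold change divided by the root of its F statistic. Alternatives were library size alone, DESeq2 1.42.0 size factors and Wald test, the 13 libraries alone, filterByExpr, an FDR below 0.1, a log2 fold change of at least 1, and leaving out each library. The tests were checked on simulated data.

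Named genes were the 12 largest changes each way among genes with a mean count of at least 100, the 8 largest changes of mean CPM, the 6 smallest p-values each way, and members of 52 gene lists; some genes that this rule selects are not reported here. The lists hold 1521 different measured genes, some of them in several lists. They were compiled with earlier results of these data known, as was the choice of comparison. The lists are described by counts and medians, with no test.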

Additional observations from a re-analysis of the deposited data

Results flagged for a closer look

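In 18 of 294 groups of CPM values examined for the named genes, 1 library lay far from the others of its group. Chance gives about 1 in 20 such groups. The highest Ace_6 library stood apart at 7.21 CPM for Cemip, 173 CPM for H2ax, 5.06 CPM for Ptgs2, 11.8 CPM for Fgfr3 and 1.97 CPM for Cxcl6. The highest DMSO2_6 library stood apart at 20.1 CPM for Sbk1, 34.2 CPM for Plk1, 10.7 CPM for Tgm1, 210 CPM for Atf4 and 8.20 CPM for Tbxa2r. The lowest Ace_6 library stood apart at 75 CPM for Cnnm4, 32.5 CPM for Xpc, 63.5 CPM for Ski and 59.2 CPM for Mef2c. The lowest DMSO2_6 library stood apart at 16.8 CPM for Cemip, 82.2 CPM for Gadd45a, 22.9 CPM for Slc6a9 and 1.78 CPM for Ptgs2.

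The effect of Ace differed between 24 h and 6 h for 53 of 147 named genes, by the test of the difference itself in edgeR (FDR below 0.01). The same test called 5.58% of all genes more positive and 6.06% more negative at 24 h. Many named genes were chosen by their 6 h values, which also enter the difference, so the count does not describe genes at large. The differences below are the log2 fold change at 24 h minus that at 6 h. Among mitotic genes they were 1.61 for Cdc20, 1.85 for Plk1, 2.15 for Ube2c, 1.34 for Pimreg, 1.82 for Ccnb1, 1.65 for Kif22, 1.34 for Cenpf, 1.67 for Bub1b, 2.17 for Top2a, 1.67 for Cdk1, 1.27 for Mki67, 0.76 for Aurkb, 1.43 for Foxm1 and 1.23 for Mybl2. All 14 were more positive at 24 h. Among genes of replication, repair and the p53 response they were 0.84 for E2f1, 0.41 for Pcna, 1.35 for Dtl, 0.78 for Exo1, 1.15 for Brca1, 2.0 for Ddias and 1.07 for Pmaip1. Other genes that were more positive at 24 h were Cdh24 (0.91), A3galt2 (0.78), Zfp467 (0.61), Rilp (0.46), Cavin2 (0.29), Nqo1 (0.72), Cyp1b1 (0.60), Cyp1a1 (1.68), Adamts4 (0.52), Angptl4 (0.94), Dbp (0.46) and Nr1d1 (0.72). Genes that were more negative at 24 h were Cnnm4 (-0.34), Aldh3a1 (-1.14), Slc2a13 (-0.60), Hspa5 (-0.58), Calr (-0.40), Peg3 (-1.56), Col3a1 (-0.86), Actb (-0.34), Postn (-1.52), Hexim1 (-0.31), Ttyh2 (-0.59), Lig4 (-0.43), Xpc (-0.34), Manf (-0.28), H1f2 (-0.95), Ski (-0.41), Igf1 (-1.09), Nos3 (-0.78), Clock (-0.39) and Fkbp5 (-0.40).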

How the results depend on the processing

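The 4619 genes called at 6 h became 4414 with library size as the only scaling (1962 higher and 2452 lower), 4623 with DESeq2 size factors, 4807 with DESeq2's Wald test, 5130 with the 13 compared libraries alone and 4655 after filterByExpr. Library size alone moved the median log2 fold change of all genes to -0.03. Leaving out 1 library gave 4246 to 4452 genes, of which 2204 to 2443 were higher and 1907 to 2173 lower. An FDR below 0.1 called 7120 genes (3600 higher and 3520 lower), and a log2 fold change of at least 1 called 384 (136 and 248). With the same 2 thresholds the difference between 24 h and 6 h went from 1694 genes to 3867 and 340, the difference between 5FU and Ace from 4504 to 7017 and 558, and a minimum fold change brought Dox_6 against Ace_6 from 9034 to 2090. Among the named genes, library size alone ended the calls of Cdkn1a, Calr and Pabpc1, and DESeq2's Wald test that of Sbk1. The median of the Ace metabolism list turned from 0.06 to -0.000806 without Ace_6 library 5 and reached 0.0922 without Ace_6 library 3. The cause was not tested. List counts of 1 or 2 genes often moved by 1 or 2 under these alternatives. No paired analysis was possible because the columns carry no replicate numbers. All values rest on parallel cultures of 1 preparation at 1 dose, and genes with few counts have the widest errors.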

Other observations

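Further gene lists at 6 h gave the following counts, where 16.5% of all genes rose and 15.2% fell. Of 27 targets of YAP and serum response factor, which respond to the actin skeleton, 8 fell and the others were not called (5 fell without Ace_6 library 6 or without DMSO2_6 library 6), with a median log2 fold change of -0.16. Of 46 genes of ribosome biogenesis and the nucleolus 12 fell and 3 rose, with a median of -0.09. Of 45 autophagy and lysosome genes 10 rose and 5 fell (3 without Ace_6 library 3, Ace_6 library 6 or DMSO2_6 library 6). Of 33 genes that remove reactive oxygen 7 rose and 3 fell (1 without DMSO2_6 library 7, and 5 with the 13 compared libraries alone). The Wnt list had 5 higher and 5 lower genes of 35, the hypoxia list 3 and 4 of 33 (6 and 7 with the 13 compared libraries alone), the phospholipid list 9 and 8 of 51 (5 lower without Ace_6 library 3) and the nucleotide synthesis list 6 and 5 of 38 (3 lower without Ace_6 library 6). Of 14 cardiac stress peptides and related genes, 3 fell.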
